A study of Cricetulus griseus with 24 samples.

Results

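The genes described here encode the proteins of the cytosolic ribosome. Members were the rows of the gene count table whose symbol is RPL or RPS followed by a number and at most 1 letter, or RPLP0, RPLP1, RPLP2 or RPSA, with a mean over all cultures of at least 5 CPM (counts scaled to a common library total). Of 28037 gene rows, 74 carried such a symbol and 72 were members: 39 of the large subunit, 3 of its stalk and 30 of the small subunit. The 2 rows left out lay far under the limit, RPS6 with no count in any culture and RPL3L with a mean of 0.0426 CPM, while the lowest member, RPS27L, had a mean of 82.8 CPM. The lack of RPS6 counts is not read as absence of expression, and its cause was not tested. RPL41, RPL10L and RPL39L matched no gene symbol of the table and are not analysed here. The question was how the mRNAs of these proteins compared between a parental antibody producer, its amplified progeny and a separate line, in growing and in stationary cultures.

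RNA-Seq was carried out on 24 libraries of Chinese hamster ovary (CHO) cells. A0 is a CHO DG44 line that makes a humanized IgG from a heavy chain plasmid and a plasmid with the light chain and neomycin resistance genes. Cells were selected in G418, which was then removed. A1 is the progeny of A0 after amplification with methotrexate (MTX), and it carries the transgenes of A0. CHO-S is a separate CHO line whose library titles hold a code that the labels do not explain, and the methods of the study describe no culture of it. A0 was sampled in 4 cultures at exponential phase and 4 at stationary phase, and A1 and CHO-S in 3 cultures at each phase. The 8 A0 exponential libraries were summed to 4 cultures by the number in their titles. Numbers 1 and 2 have a second library with the suffix RLT, and numbers 3 and 4 one with the suffix Duplicate. The labels do not explain these suffixes, so it is an assumption that both libraries of a number come from 1 culture. A0 and A1 are each 1 line, so a difference between them is a difference between these lines, and p-values measure the spread between cultures.

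A ribosome holds 1 copy of nearly every ribosomal protein, and the stalk proteins RPLP1 and RPLP2 are the known exception, present as dimers on RPLP0. The mRNAs share a stretch of pyrimidines at their 5′ end (the TOP motif), through which the kinase mTOR and the RNA-binding protein LARP1 adjust their translation and stability to nutrients and growth. Ribosomal protein genes are also known for many processed pseudogene copies. The authors' counting dropped reads that align to several places, so a gene with near-identical copies loses reads, and levels of such genes are uncertain. Between 12.7% and 14.8% of the reads of a culture were dropped for this reason, and how many of them came from ribosomal protein mRNAs was not tested. Levels are therefore compared between cultures for 1 gene at a time and not between genes.

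Counts on genes ranged from 6532373 to 26584337 per culture, except in CHO-S stationary culture 1, which held 1038026. In that culture 32.8% of reads fell outside annotated genes, against 18.1% and 18.2% in its companions. There, 34 of the 72 members lay more than 1.5-fold under the mean of the other cultures of the group and 4 as much over it. Of 10588 genes, 52.3% lay more than 1.5-fold from that mean in either direction, against at most 4.19% in any culture of the other groups. The RLT library of A0 exponential culture 1 held 61160 CPM on the members against 44577 in the first library of the same number, with 21 members more than 1.5-fold higher and none as much lower. The RLT library of culture 2 was higher by a median of 0.14 on the log2 scale, and the Duplicate libraries differed from their first libraries by medians of 0.01 and -0.07. A0 exponential culture 4 also stood apart among the members. There, 13 lay more than 1.5-fold under the mean of the group's other cultures and none as much over it. Of the same 10588 genes, 4.19% lay more than 1.5-fold from that mean in either direction. Counts of called members are given with and without these cultures where leaving them out moved the balance of calls.

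The labels were checked against marker genes. VIM, LGALS1, ANXA2 and TAGLN2, mRNAs of fibroblast-like cells, were counted in every culture, whereas PTPRC, CD3E, ALB and RBFOX3, of blood, liver and neurons, were at 0 or near it. A0 cultures 1 and 2 are those with an RLT library, so these 2 cultures and cultures 3 and 4 are also compared separately. Of 6 proliferation genes, 5 fell from exponential to stationary phase in A0, 5 in A1 and 3 in CHO-S.

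The members took up between 2.40% and 5.36% of all counts on genes in a culture. At exponential phase the share was 5.36%, 4.63%, 4.05% and 3.86% in A0 cultures 1 to 4, 4.36%, 4.27% and 4.26% in A1, and 3.66%, 3.79% and 3.79% in CHO-S. The A0 cultures spread across the whole range of A1, and all of them lay above CHO-S, although with TMM scaling culture 4 (3.78%) fell under the CHO-S cultures (3.83% to 3.95%). At stationary phase the share was 5.07%, 4.89%, 4.91% and 4.81% in A0, 4.35%, 4.51% and 4.50% in A1, and 2.40%, 3.07% and 3.08% in CHO-S. The 3 lines did not overlap there, and the CHO-S cultures were the lowest of all 20 cultures also without the shallow one. These are shares of mRNA, and fewer ribosomal protein transcripts per cell cannot be told apart from more of other transcripts. The ratio of small to large subunit CPM, stalk included in the large subunit, lay between 0.740 and 0.828 in the A0 and A1 cultures and between 0.694 and 0.762 in CHO-S.

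**Figure D1:**
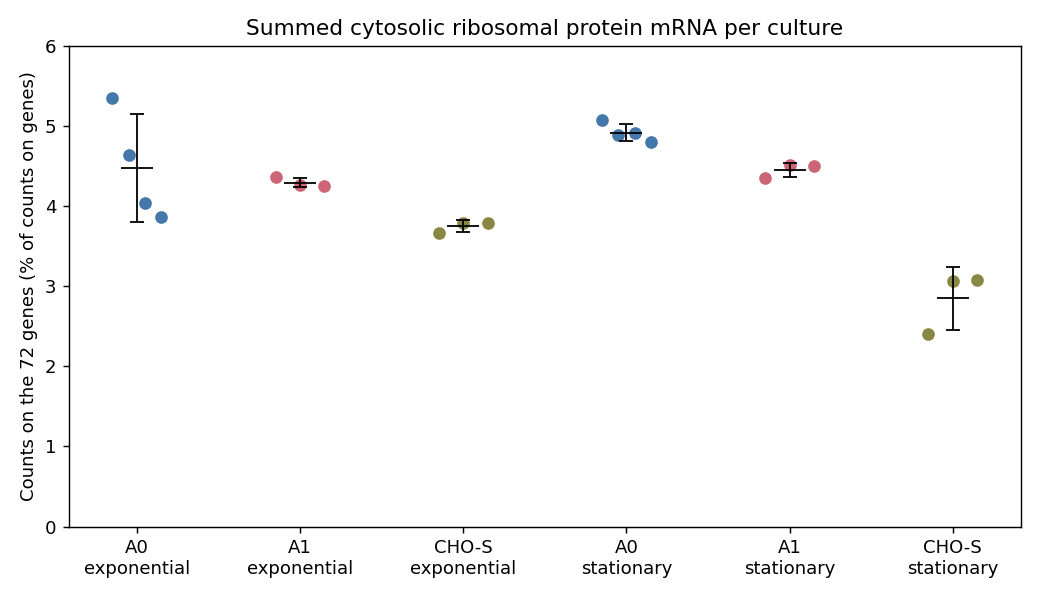
Counts on the 72 ribosomal protein genes as a percentage of all counts on genes (vertical axis) in each culture, by line and growth phase; points are cultures, black bars the mean and 1 SD. The 4 exponential A0 cultures run from 3.86% to 5.36%, the A1 cultures lie close together, and the CHO-S stationary cultures are the lowest at 2.40% to 3.08%.

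In A1 against A0 at exponential phase the members moved in both directions with no common shift. By edgeR's quasi-likelihood test, 12 of 72 were higher in A1 and 14 lower at an adjusted p under 0.05, where the same call was made for 12% and 13.8% of all 20021 genes tested. The median log2 fold change of the members was 0.03 (quartiles -0.32 and 0.21), against -0.04 over all genes. The large subunit had 7 members higher and 11 lower and the small subunit 4 higher and 3 lower.

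RPS27A, whose product is made as a fusion with ubiquitin that is cleaved to free both, had the largest difference. Its level was 382, 277, 241 and 330 normalized CPM in A0 cultures 1 to 4 and 864, 837 and 855 in A1. every A1 culture lay above the highest A0 culture, and the fold change was 2.77 (log2 1.47 ± 0.13 SE, adjusted p = 1.1e-06 by edgeR). The log2 fold change stayed between 1.36 and 1.63 in all 16 alternative analyses. Sequence copies of ubiquitin lie in other genes as well, and how dropped reads bear on this level was not tested.

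The zinc-finger protein gene RPS27 was also higher in A1. It stood at 158, 139, 109 and 189 normalized CPM in A0 and at 252, 245 and 254 in A1, without overlap, a log2 fold change of 0.75 ± 0.14 (SE, adjusted p = 0.00097 by edgeR). The large subunit genes RPL27A, RPL13 and RPL35 followed with log2 fold changes of 0.54, 0.53 and 0.49, which passed the edgeR threshold in every alternative run. RPL27A, for example, was at 476, 417, 354 and 443 in A0 and 615, 609 and 625 in A1.

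Among the members lower in A1, RPL22, an RNA-binding protein of the large subunit, stood at 478, 387, 408 and 173 normalized CPM in A0 cultures 1 to 4 and 202, 198 and 183 in A1. A0 culture 4 lay under all A1 cultures while the other 3 were well above them, and the log2 fold change was -0.90 ± 0.23 (SE, adjusted p = 0.009 by edgeR). Without culture 4 it was -1.13 (adjusted p = 7.2e-06), and with A0 cultures 3 and 4 alone it was -0.58 (adjusted p = 0.14). RPL35A, 1 of the genes mutated in Diamond-Blackfan anaemia, showed 702, 655, 586 and 334 in A0 and 314, 302 and 315 in A1, so that culture 4 was again near A1 but did not overlap. Its log2 fold change was -0.88 ± 0.18 (SE, adjusted p = 0.0024 by edgeR), and the call held in all 16 alternatives.

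RPS12, RPL37 and RPL15 were lower by log2 fold changes of -0.82, -0.68 and -0.53. RPS12 stood at 1201, 966, 800 and 509 in A0 and at 497, 477 and 499 in A1, and RPL37 at 751, 698, 638 and 343 in A0 and at 394, 393 and 356 in A1. In both genes A0 culture 4 came close to A1, and with A0 cultures 3 and 4 alone neither passed (adjusted p = 0.073 and 0.21). RPS21 spread widely over the A0 cultures, at 2394, 1868, 1607 and 617 in A0 against 1059, 1008 and 987 in A1. It did not pass the test with all cultures (log2 fold change -0.67 ± 0.28 SE, adjusted p = 0.097) and did without culture 4 (-0.94, adjusted p = 0.00018). RPS21 is named for this behaviour, after its values were seen.

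The balance of calls depended on which A0 cultures were used. With A0 cultures 1 and 2 alone, 14 members were higher in A1 and 30 lower, where the shares over all genes were 17.7% and 19.7%. With cultures 3 and 4 alone, 24 were higher and 5 lower, against 11.4% and 14% of all genes. Without culture 4 the counts were 14 and 24 (14.1% and 16.5% of all genes), without culture 1 they were 21 and 10 (11.9% and 13.5%), and without culture 2 they were 6 and 9 (8.94% and 11.7%). With the first A0 libraries only they were 23 and 13 (15.2% and 14.7%), and without A1 culture 1, 2 or 3 there were 11, 11 and 9 calls in all, against 17.3%, 17.1% and 15.9% of all genes.

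**Figure D2:**
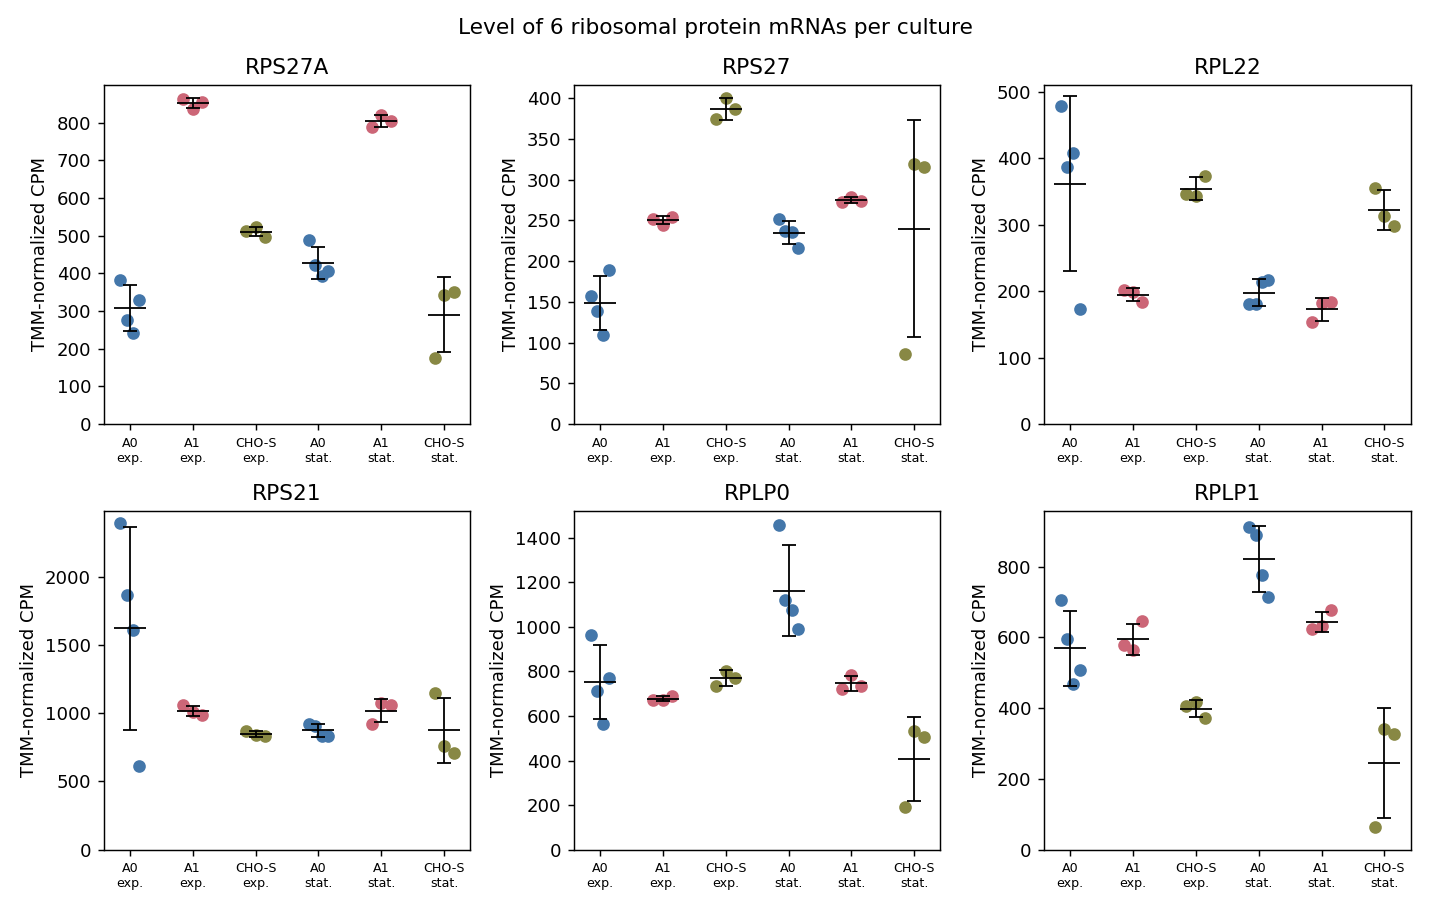
Level in TMM-normalized CPM (vertical axes, from 0) of RPS27A, RPS27, RPL22, RPS21, RPLP0 and RPLP1 in every culture of the 3 lines at both phases; points are cultures, black bars the mean and 1 SD. RPS27A is highest in A1 at both phases, RPL22 and RPS21 have 1 low A0 exponential culture (173 and 617), and RPLP0 and RPLP1 are highest in stationary A0.

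At stationary phase more members were lower in A1 than in A0. By edgeR, 37 of 72 were lower and 6 higher, against 17.7% and 16% of the 19293 genes tested, and the median log2 fold change was -0.20 (quartiles -0.34 and -0.04) with 0.00 over all genes. The large subunit had 22 members lower and 2 higher, the stalk 3 lower, and the small subunit 12 lower and 4 higher. With A0 cultures 1 and 2 alone 45 were lower and 5 higher (21.6% and 20.2% of all genes), and with cultures 3 and 4 alone 34 and 8 (19.1% and 18.2%), so lower members outnumbered higher ones with either pair.

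RPLP0 carries the RPLP1 and RPLP2 dimers that bring translation factors to the ribosome. RPLP0 stood at 1457, 1120, 1076 and 991 normalized CPM in A0 and at 720, 785 and 735 in A1, with no overlap and a log2 fold change of -0.65 ± 0.11 (SE, adjusted p = 0.00028 by edgeR). RPLP1 (-0.36, adjusted p = 0.0046) and RPLP2 (-0.24, adjusted p = 0.029) were also lower, but the RPLP2 call was lost in 7 of 15 alternatives, cultures 3 and 4 alone among them (-0.13, adjusted p = 0.087). At exponential phase RPLP0 and RPLP1 had not passed (-0.15 and 0.06), and RPLP2 had been higher in A1 (0.35, adjusted p = 0.036), a call lost in 6 of 16 alternatives.

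The most negative difference among the members was that of RPL27, at 440, 408, 397 and 412 normalized CPM in A0 and 258, 264 and 253 in A1. Its log2 fold change was -0.69 ± 0.06 (SE, adjusted p = 2.4e-06 by edgeR). RPS12, RPS24 and RPL21 had log2 fold changes of -0.65, -0.63 and -0.62, and for these 3 genes and RPL27 the call held in all 15 alternatives. RPL21 stood at 1362, 1308, 1272 and 1282 in A0 and at 852, 856 and 856 in A1.

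RPS27A was again highest in A1, at 787, 820 and 805 normalized CPM against 488, 421, 394 and 405 in A0. The groups did not overlap, and the log2 fold change was 0.90 ± 0.07 (SE, adjusted p = 7.9e-07 by edgeR). RPS26 (0.39), RPL11 (0.35), RPL7 (0.23) and RPS27 (0.22) were the next highest of the 6 members that were higher in A1, but the RPS27 call was lost in 7 of 15 alternatives and the RPL7 call in 3. RPL11 and RPL5 form a particle with 5S rRNA that also restrains MDM2, and they differed in opposite directions: RPL11 was at 911, 873, 976 and 957 in A0 and 1206, 1222 and 1161 in A1, and RPL5 at 683, 680, 627 and 658 in A0 and 489, 514 and 511 in A1 (log2 fold change -0.40 ± 0.06 SE, adjusted p = 0.00023 by edgeR).

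**Figure D3:**
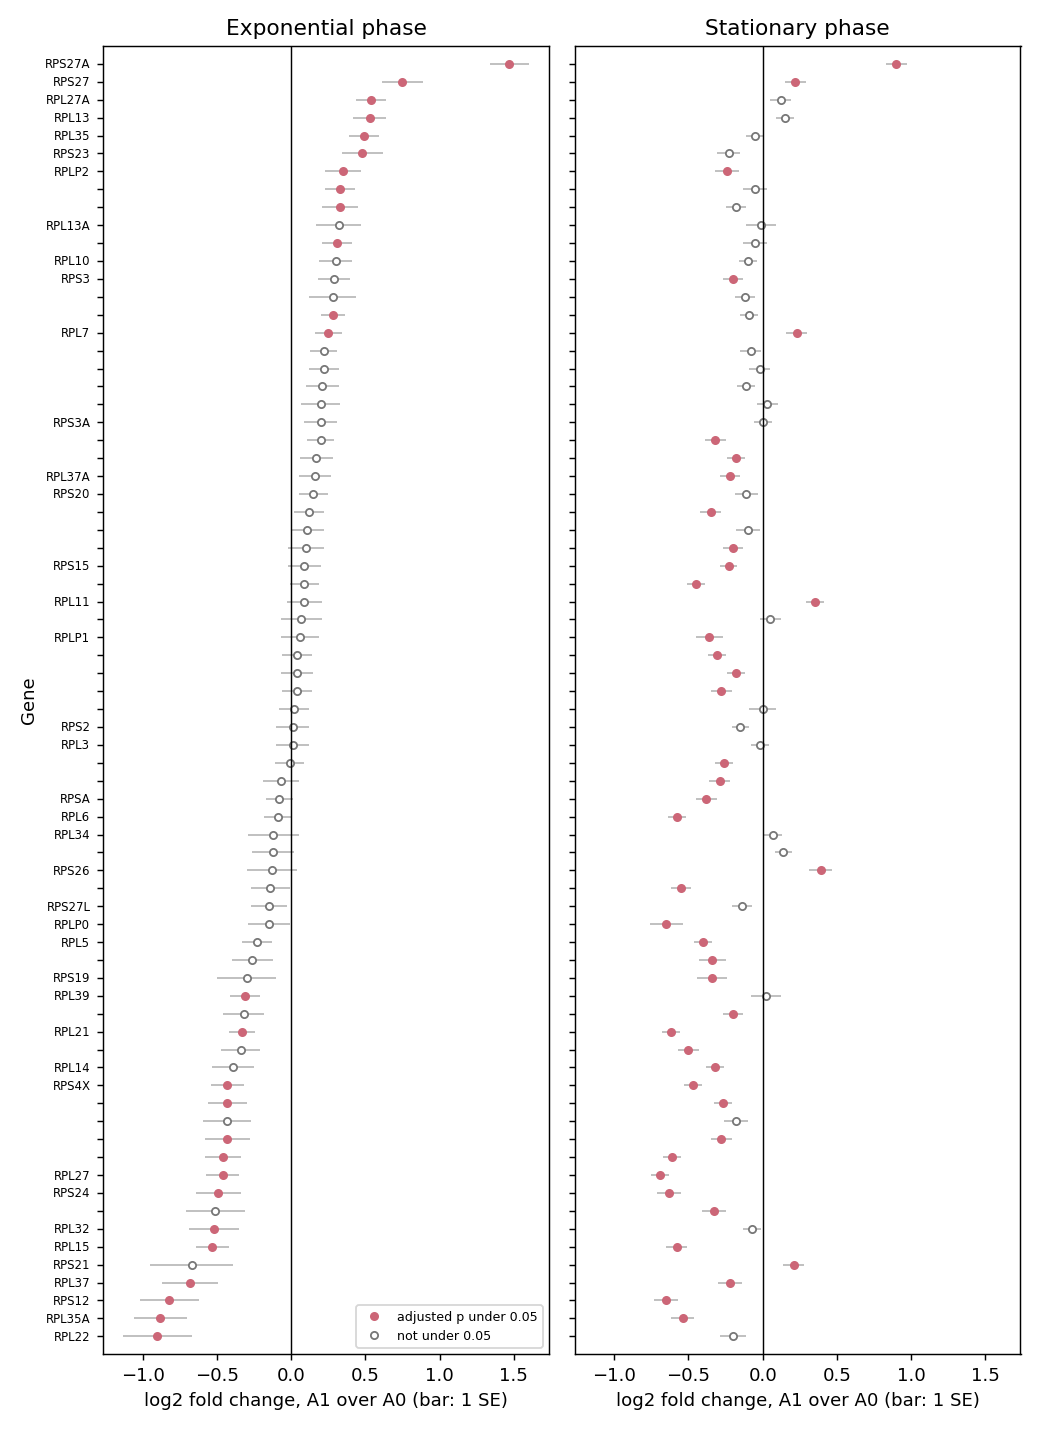
Log2 fold change of A1 over A0 (horizontal axes, bars 1 SE) for all 72 genes (vertical axis, ordered by the exponential value) at exponential phase on the left and stationary phase on the right; filled points passed the edgeR threshold. RPS27A lies farthest to the right in both panels, at 1.47 and 0.90, and most filled points of the right panel lie under 0. Only genes named in the text are labelled.

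The difference between the phases was itself tested, as the interaction of line and phase over the 4 groups of A0 and A1. By edgeR 13 of 72 members had a negative interaction and none a positive one, where 3.89% and 5.03% of all 20978 genes were called. DESeq2 called 21, all negative, where it called 1112 of the 20978 genes negative. A negative value says that A1 relative to A0 was lower at stationary than at exponential phase. The median interaction of the members was -0.22, against 0.02 over all genes. RPS23, next to the decoding centre of the small subunit, had the lowest value (-0.71 ± 0.18 SE, adjusted p = 0.015 by edgeR), followed by RPLP2 (-0.59) and RPS27A (-0.57). For RPS27A the A1 excess was present at both phases and smaller at stationary phase, but the interaction was lost in 9 of 23 alternatives. Without A0 exponential culture 4, 17 members were negative and 9 positive (5.59% and 7.18% of all genes), RPS21 (1.15) and RPL22 (0.93) among the positive ones. With the first A0 libraries alone 34 were negative and none positive (5.80% and 5.71%). A0 cultures 1 and 2 alone gave 24 negative and 16 positive members (10.7% and 12%), and cultures 3 and 4 alone 33 negative and none positive (3.97% and 5.09%). Without A0 exponential culture 1 there were 29 negative calls (4.42% of all genes), and 8 without A0 exponential culture 2 (3.15%) or A0 stationary culture 1 (2.93%). Without A1 exponential culture 1, 2 or 3 there were 7, 5 and 7 (2.90%, 2.06% and 2.38%), and without A1 stationary culture 1, 2 or 3 there were 6, 6 and 8 (2.95%, 1.98% and 2.83%). With the culture number as a block 32 were negative and 6 positive (7.45% and 8.91%).

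The next comparisons set stationary against exponential phase within a line, and they share cultures with those above. In A0, 26 of 72 members rose at stationary phase and 9 fell by edgeR, against 17.6% and 20% of 20326 genes, with a median log2 fold change of 0.20 (quartiles -0.13 and 0.40) and 0.00 over all genes. All 3 stalk members rose, RPLP0 by 0.61, RPLP1 by 0.52 and RPLP2 by 0.51 on the log2 scale. RPS23 stood at 178, 124, 104 and 158 normalized CPM in exponential cultures 1 to 4 and at 294, 247, 252 and 222 in stationary ones, and every stationary culture was higher (log2 fold change 0.84 ± 0.14 SE, adjusted p = 0.0002 by edgeR). RPL10, which joins the large subunit last and activates it, rose from 213 to 304 to the range of 397 to 429, a log2 fold change of 0.70 ± 0.11 (SE, adjusted p = 8.7e-05). RPS27 rose by 0.65, without a call when cultures 3 and 4 were used alone.

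RPS21, RPL22 and RPS26 fell by 0.90, 0.88 and 0.65 on the log2 scale. RPS26 stood at 307, 249, 210 and 148 in exponential cultures and 146, 141, 168 and 134 in stationary ones. In all 3 genes exponential culture 4 lay inside or under the stationary range, and with cultures 3 and 4 alone none of the 3 passed (adjusted p = 0.49, 0.42 and 0.38). RPS21 also lost its call without exponential culture 1. With cultures 3 and 4 alone 33 members rose and none fell (12.9% and 14.4% of all genes), and with cultures 1 and 2 alone 23 rose and 19 fell (19.1% and 21.8%). Without exponential culture 4, 25 rose and 16 fell (18.3% and 20.1%), and with the first libraries 43 rose and 8 fell (19.2% and 18.9%). Between phases, cultures 1 and 2 correlated best with their own number, culture 3 as well with another number and culture 4 better with another. With the number as a block 36 rose and 12 fell (20% and 22.7%).

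In A1 the differences between phases were small: 15 of 72 members rose and 9 fell by edgeR, against 15.6% and 17.8% of 18548 genes, with a median log2 fold change of 0.04 (quartiles -0.08 and 0.13). RPL37 had the largest rise, from 394, 393 and 356 normalized CPM to 423, 520 and 520, a log2 fold change of 0.38 ± 0.06 (SE, adjusted p = 2.2e-05). RPL10 rose by 0.34 and RPS20 by 0.30. RPS2, beside the channel where mRNA enters, fell from 1899, 1994 and 1952 to 1411, 1532 and 1505, without overlap (log2 fold change -0.38 ± 0.05 SE, adjusted p = 2.5e-07). RPS27L, a paralog of RPS27 that p53 is known to induce, fell by 0.33, and RPL7 by 0.26. Without A1 exponential culture 1, 8 rose and 6 fell (13.9% and 16.2% of all genes). When all 6 groups were fitted together no member was called, the 6 named here included, where 5.83% of all genes rose and 5.73% fell. DESeq2 called 27 members, against 5046 of the 18548 genes.

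In CHO-S few members passed the test between phases with all cultures, and the count changed with which cultures were used. With all cultures 5 of 72 fell and none rose by edgeR, against 6.48% and 6.81% of 17367 genes, although 67 had a negative log2 fold change and the median was -0.36 (quartiles -0.59 and -0.19). DESeq2 called 17, all lower, where it called 7.78% of all genes lower. The 5 were RPL14 (-0.71), RPL6 (-0.65), RPL32 (-0.59), RPL7 and RPS4X. Without the shallow stationary culture 1, 59 fell and 1 rose, against 24.7% and 23.1% of 17319 genes, and the median was -0.25. Without any 1 of the other 5 cultures no member was called, where 0.769%, 0% and 0.608% of all genes were called lower without exponential culture 1, 2 or 3 and 0.837% and 1.30% without stationary culture 2 or 3. RPSA, the small subunit protein also known as the laminin receptor, stood at 1399, 1507 and 1525 normalized CPM in exponential cultures and at 282, 1013 and 951 in stationary cultures 1 to 3, and its log2 fold change was -0.97 ± 0.41 (SE, adjusted p = 0.16) with all cultures and -0.58 (adjusted p = 1.6e-23) without culture 1. RPS12 (-0.61), RPS2 (-0.57) and RPLP0 (-0.57) were likewise lower without that culture. RPS12 and RPS2 are named there after their values were seen.

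**Figure D4:**
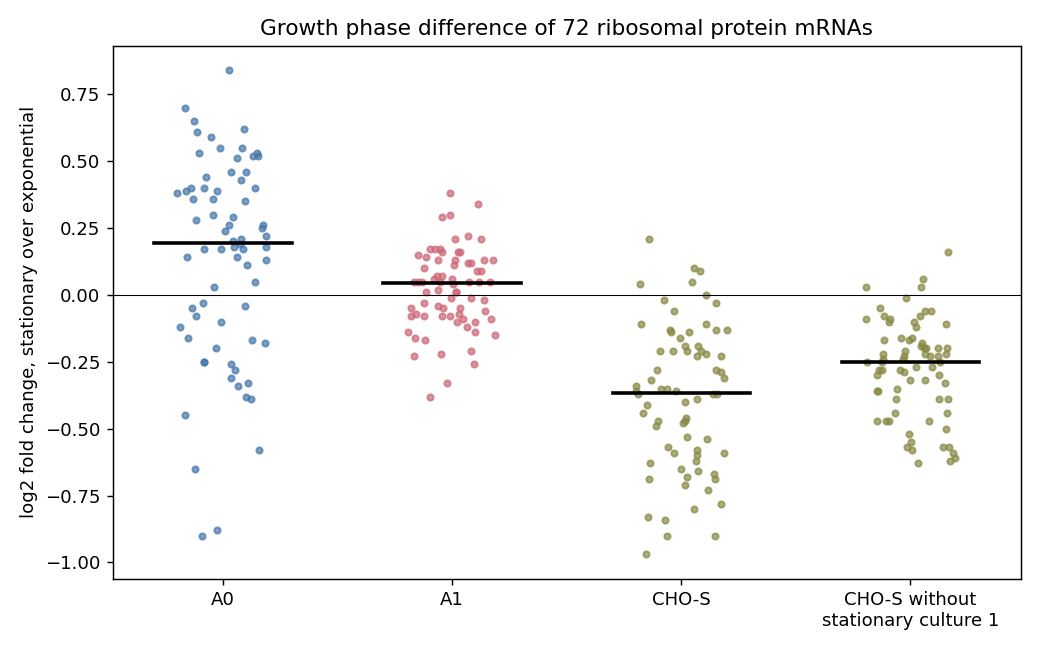
Log2 fold change of stationary over exponential phase (vertical axis) of the 72 genes in A0, A1, CHO-S and CHO-S without the shallow stationary culture; each point is a gene, placed sideways at random, and black lines are medians. The medians are 0.20, 0.04, -0.36 and -0.25, and the A1 points lie closest together.

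Against CHO-S at exponential phase, both producer lines had more members higher than lower. In A0 against CHO-S 29 of 72 were higher and 11 lower by edgeR (27.4% and 21.8% of 20052 genes), with a median log2 fold change of 0.18 and 0.15 over all genes. In A1 against CHO-S 39 were higher and 23 lower (30.0% and 27.1% of 18488 genes), with a median of 0.17 and 0.05 over all genes. These comparisons share the CHO-S cultures. Without A0 culture 4 the A0 counts were 37 and 13 (28.3% and 23.6%), with A0 cultures 1 and 2 alone 43 and 13 (31.7% and 26.4%), and with cultures 3 and 4 alone 20 and 17 (27.4% and 23%). Without A0 culture 1 they were 24 and 14 (27.1% and 21.9%), and with the first A0 libraries 25 and 16 (27.5% and 24.7%). For A0 the median was 0.29 with cultures 1 and 2 alone, against 0.10 over all genes. With cultures 3 and 4 alone it was 0.03, under the 0.09 of all genes.

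RPS15 and RPS19 stood higher in both producers. RPS19, the first gene linked to Diamond-Blackfan anaemia, was at 564, 440, 328 and 244 normalized CPM in A0, 328, 314 and 317 in A1 and 181, 198 and 189 in CHO-S. The count table names this row RPS19, whereas RefSeq now lists it under a LOC symbol. All cultures of both producers lay above CHO-S, with log2 fold changes of 1.07 ± 0.21 (SE, adjusted p = 0.00054 by edgeR) in A0 and 0.75 ± 0.05 (SE, adjusted p = 9.6e-13) in A1. RPS15 had log2 fold changes of 0.99 and 1.06, and RPL37A one of 0.82 and 0.97. RPS21 was 0.95 higher in A0, a call that was lost in 5 of 16 alternatives, among them A0 cultures 3 and 4 alone (0.39, adjusted p = 0.35), without A0 culture 1 and without each CHO-S culture.

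RPS27 and RPS23 were lower in A0 than in CHO-S, with log2 fold changes of -1.37 and -1.21, and these calls held in all 16 alternatives. RPS27 was at 374, 401 and 386 normalized CPM in CHO-S, above every A0 (109 to 189) and A1 (245 to 254) culture. In A1 the lowest were RPL22 (-0.87), RPL35A (-0.80) and RPS23 (-0.74), and their calls held in all 12 alternatives. RPS27A lay in different places in the 2 producers: it was lower in A0 than in CHO-S (-0.72 ± 0.13 SE, adjusted p = 0.00025 by edgeR) and higher in A1 (0.73 ± 0.04 SE, adjusted p = 1.6e-13), with CHO-S at 512, 522 and 498.

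At stationary phase the median difference from CHO-S was larger in both producers, a change between phases that was not tested. In A0 43 of 72 members were higher and 3 lower by edgeR (20.7% and 19.3% of 19007 genes), and in A1 30 were higher and 4 lower (18.2% and 16.6% of 18243 genes). The median log2 fold changes were 0.66 and 0.44, against 0.08 and 0.06 over all genes. Without CHO-S stationary culture 1 the counts were 52 and 6 in A0 (28.0% and 23.8% of all genes) and 49 and 14 in A1 (29.9% and 27.5%), and the medians were 0.67 and 0.45. A0 cultures 1 and 2 alone gave 30 higher and 1 lower (16.4% and 13.8%), and cultures 3 and 4 alone 21 and 1 (15.6% and 14.1%). In A1, leaving out A1 culture 1, 2 or 3 left 17, 13 and 15 calls, against 24.4%, 23% and 23.2% of all genes. With plain library totals in place of TMM scaling, the median of the members moved to 0.77 in A0 and 0.60 in A1. That of all genes moved with it, to 0.19 in A0 and 0.22 in A1.

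RPS19 was at 551, 487, 409 and 388 normalized CPM in A0, 343, 380 and 374 in A1 and 64.0, 150 and 151 in CHO-S. The 3 lines did not overlap, and the log2 fold change was 1.87 ± 0.28 (SE, adjusted p = 0.00045 by edgeR) for A0 and 1.54 ± 0.29 (SE, adjusted p = 0.004) for A1, or 1.62 and 1.26 without CHO-S culture 1. RPS15 followed with 1.73 and 1.52, or 1.39 and 1.13 without CHO-S culture 1, a call that was lost in A1 without each A1 culture and in A0 with A0 cultures 3 and 4 alone, and RPLP1 with 1.71 in A0. RPLP1 stood at 911, 888, 776 and 713 in A0 and 65.0, 342 and 326 in CHO-S, and was 1.31 higher without the shallow culture, but it did not pass with either pair of A0 cultures alone. RPS27A had a log2 fold change of 1.44 in A1 against CHO-S, or 1.19 without CHO-S culture 1.

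RPL22 was lower than in CHO-S in both producers, at 180, 180, 213 and 217 normalized CPM in A0, 153, 182 and 184 in A1 and 355, 313 and 297 in CHO-S. Its log2 fold changes were -0.72 ± 0.14 (SE, adjusted p = 0.0025 by edgeR) and -0.91 ± 0.16 (SE, adjusted p = 0.0026), and the calls held in every alternative. RPL34 (-0.44) and RPS3A (-0.39) were the other members lower in A0, and RPL35A (-0.55), RPL27 (-0.52) and RPS3A (-0.38) those in A1. In A0, RPL34 lost its call in 11 of 15 alternatives and RPS3A in 9, and in A1, RPL27 lost its call in 7 of 12 and RPL35A in 6.

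**Figure D5:**
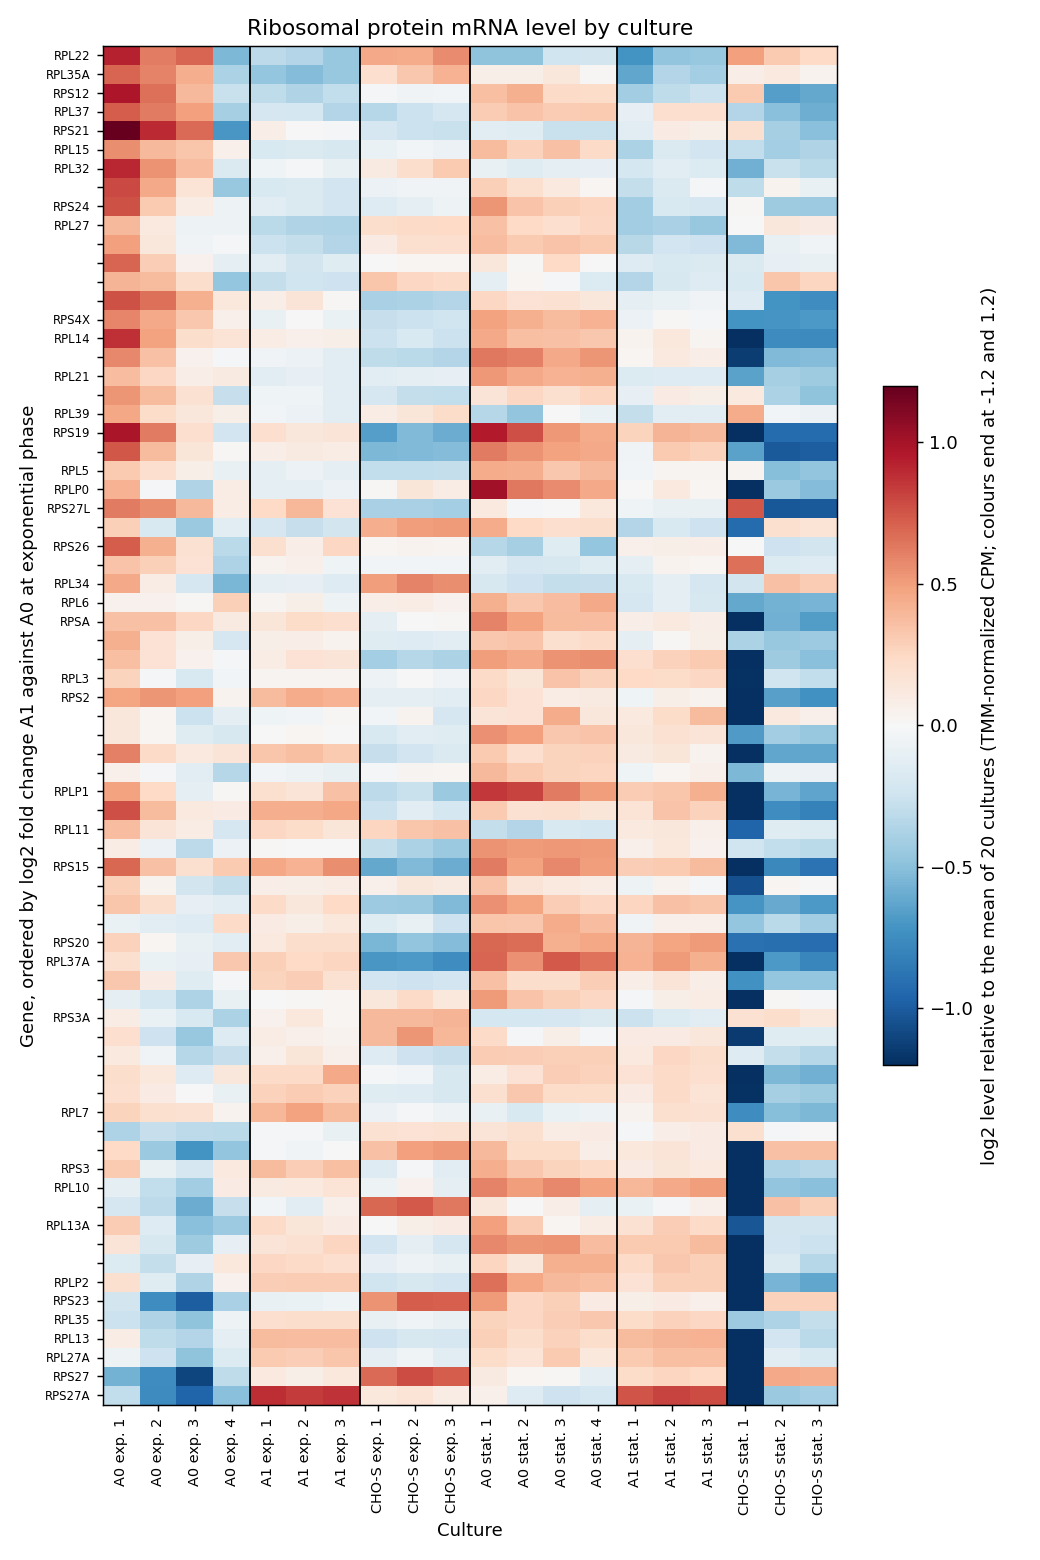
Level of the 72 genes (rows, ordered by the log2 fold change of A1 over A0 at exponential phase) in the 20 cultures (columns), as log2 of TMM-normalized CPM minus the mean over the cultures; black lines separate groups, and colours end at -1.2 and 1.2, beyond which values are not told apart. CHO-S stationary culture 1 differs most from its group, with 38 members over 1.5-fold from the mean of the group's other cultures. Among the other groups, A0 exponential cultures 4 and 1 follow with 13 and 11, whereas no A1 culture has such a member. Only genes named in the text are labelled.

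Other members were chosen for their role. In A1 against A0, RPL3, at the peptidyl transferase centre, had log2 fold changes of 0.01 ± 0.11 and -0.02 ± 0.06 (SE) at exponential and stationary phase, and RPL13A, also known from a complex that silences translation of inflammatory mRNAs, 0.32 ± 0.15 and -0.01 ± 0.10, none of which passed the test. RPS3, at the mRNA entry site, was at 0.29 (adjusted p = 0.069) and -0.20 (adjusted p = 0.029 by edgeR), and RPL10 at 0.30 (adjusted p = 0.061) and -0.10. RPS4X was lower in A1 at both phases (-0.43 and -0.47), and RPL39, which lines the exit tunnel, at exponential phase only by the threshold (-0.31, adjusted p = 0.036, against 0.02 at stationary phase), a difference between phases that did not pass the interaction test (adjusted p = 0.19). The RPL39 call was lost in 7 of 16 alternatives, the exponential RPS4X call in 3 of 16 and the stationary RPS3 call in 8 of 15. RPSA was lower in A1 at stationary phase (-0.38), and RPS27L did not pass at either (-0.15 and -0.14).

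Genes that act with ribosomal proteins were examined by lists. Of 20 other TOP mRNAs and ribosome-bound factors, 17 had a row. In A1 against A0, 2 were higher and 2 lower at exponential phase and 4 higher and 7 lower at stationary phase by edgeR. Over all genes, 2398 of 20021 were higher and 2756 lower at exponential phase. At stationary phase 3084 of 19293 genes were higher and 3412 lower. TPT1, a growth-related TOP mRNA, was lower at both phases (-0.42 and -0.46), as was the elongation factor EEF1A1 (-0.36 and -0.41), while NAP1L1 was higher (0.34 and 0.32) and EIF3F was higher at exponential phase (0.28). At stationary phase 12 of the 17 were higher in A0 than in CHO-S and 11 in A1, against 20.7% and 18.2% of all genes. None was lower, against 19.3% and 16.6% of all genes. From exponential to stationary phase 4 rose and 3 fell in A0, 3 rose and 9 fell in A1, and 5 fell in CHO-S. Over all genes, 3575 of 20326 rose and 4066 fell in A0, and 2895 of 18548 rose and 3301 fell in A1. In CHO-S 1182 of 17367 genes rose and 1126 fell.

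Of 10 kinases and repressors acting on TOP mRNAs, none was higher and 2 were lower in A1 at exponential phase, and 2 were higher and 3 lower at stationary phase. Over all genes, 2398 of 20021 were higher and 2756 lower at exponential phase, and 3084 of 19293 higher and 3412 lower at stationary phase. EIF4EBP1, which encodes a translation repressor that mTOR phosphorylates, stood at 145, 155, 126 and 139 normalized CPM in exponential A0 and at 105, 108 and 109 in A1 (log2 fold change -0.40). At stationary phase it was at 297, 262, 255 and 265 in A0 and 136, 134 and 139 in A1, a log2 fold change of -0.99 ± 0.07 (SE, adjusted p = 2.4e-07 by edgeR). The A0 cultures lay above all A1 cultures at both phases. The S6 kinase gene RPS6KB2 was lower in A1 at exponential phase (-0.49), and MTOR (0.21) and LARP1 (-0.19) did not pass there. MTOR was higher in A1 at stationary phase (0.40, adjusted p = 0.00037).

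Of 11 chaperones and importers that escort new ribosomal proteins, 1 was higher and 4 lower in A1 at exponential phase, and none was higher and 4 lower at stationary phase. Over all genes, 2398 of 20021 were higher and 2756 lower at exponential phase, and 3084 of 19293 higher and 3412 lower at stationary phase. The importin gene IPO5 was lower at both phases (-0.43 and -0.55), as was LTV1, an assembly factor of the small subunit (-0.31 and -0.43). HEATR3, which carries RPL5, was lower at exponential phase (-0.40), and PDCD2L was higher (0.47). Of 3 paralogs whose symbols the member rule leaves out, RPL22L1, the paralog of RPL22, was higher in A1 at exponential phase (0.50 ± 0.14 SE, adjusted p = 0.014 by edgeR), at 7.12, 7.51, 6.97 and 7.56 normalized CPM in A0 and 11.5, 9.64 and 9.68 in A1. It was at 21.3, 22.7 and 17.2 in CHO-S, and at stationary phase its A1 difference did not pass (0.50, adjusted p = 0.078). RPL7L1 and RPL26L1 had log2 fold changes of -0.23 and 0.11 and did not pass. A further 2 rows were added after the table was seen, RPL36AL (-0.14) and a row that RefSeq now names Rpl17 (0.13), and neither passed.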

How the data were processed

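RNA was extracted with the RNeasy kit, and libraries were made with the TruSeq Stranded mRNA kit. The authors aligned reads with STAR 2.5.4b to the C_griseus_v1.0 genome and counted them per gene with HTSeq 0.7.2. The deposited values are unnormalized read counts, and the strand setting is not given in the sources used here. The 5 summary lines of HTSeq were kept out of library sizes. The quasi-likelihood test of edgeR 4.0.16 (R 4.3.3, TMM scaling, Benjamini-Hochberg adjustment) took every gene that had a count in 2 or more libraries of a pair of groups, in 1 fit per pair, and DESeq2 1.42.0 was an alternative. The other alternatives were the scaling, the gene filter, a fit of all 6 groups, a culture block, leaving out each culture, each pair of A0 cultures and the first A0 libraries. Levels are TMM-normalized CPM over the 20 cultures. The fits were tested on simulated data. Deviations of A0 cultures of the same number correlated between phases at 0.436, 0.32, 0.274 and 0.189. The best correlation with another number (0.245, 0.179, 0.274 and 0.33) was as high for culture 3 and higher for culture 4. The main tests used no pairing, and the number was a block only in an alternative. Other comparisons shared only a number. Members and lists were chosen with earlier results of these data known. Named members were those fixed by role, the 5 largest called differences of each sign in A1 against A0, and the 3 largest in other comparisons, apart from 1 not reported here. All 72 members matched a gene ID of RefSeq (CriGri-PICRH assembly), and 71 had the same symbol there. The exception was the RPS19 row, which carries a LOC symbol in RefSeq. Coordinates and sequences were not used here. Lists comprised other TOP mRNAs, kinases and repressors, chaperones and importers, paralogs, proliferation genes and line markers.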

Additional observations from a re-analysis of the deposited data

Results flagged for a closer look

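Among 82 groups of 4 cultures, in which chance alone would set apart about 1 in 20 (4.1 expected), 2 members had 1 culture far from the others. In both it was A0 exponential culture 4, with gaps of 0.856 of the range for RPL6 (517 normalized CPM against 430 to 442) and of 0.866 for RPS2 (1505 against 2031 to 2112). The 82 groups do not cover every member, and genes share the same cultures, so the groups are not independent. The A1 against A0 difference changed between phases by the interaction test for 13 members, all with a negative value: RPL10A (-0.52), RPL18 (-0.51), RPL27A (-0.42), RPL29 (-0.47), RPL31 (-0.37), RPL35 (-0.54), RPL38 (-0.54), RPL6 (-0.49), RPLP2 (-0.59), RPS23 (-0.71), RPS27 (-0.53), RPS27A (-0.57) and RPS3 (-0.50).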

How the results depend on the processing

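Counts of called members and medians of log2 fold change were recomputed under each alternative, and the cause of each change was not tested. DESeq2 called 17 in CHO-S between phases (2727 of all 17367 genes) and 21 in the interaction (2403 of 20978). A fit of all 6 groups called 16 in A1 against A0 at stationary phase, 0 in A1 between phases (24 in its own fit and 27 by DESeq2), 24 in CHO-S between phases, 33 in A1 against CHO-S at exponential phase and 3 in the interaction. The same fit called 5151, 2469, 4107, 7546 and 973 of all 21372 genes in these comparisons, in that order. With the culture number as a replicate block, 42 were called in A1 against A0 at exponential phase, 0 in CHO-S between phases (where no pairing is shown) and 38 in the interaction (32 negative and 6 positive). Over all genes the block fits called 6190 of 20021, 350 of 17367 and 3432 of 20978, in that order. Without TMM the medians were -0.140 in A1 against A0 at stationary phase, 0.104 in A1 between phases, and 0.239 and 0.600 in A1 against CHO-S at exponential and stationary phase.

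With A0 cultures 1 and 2 alone, 44 were called in A1 against A0 at exponential phase, against 7173 of 19210 genes. In the interaction 40 were called with that pair (median -0.109), against 4586 of 20208 genes. With cultures 3 and 4 alone, 22 were called in A0 against CHO-S at stationary phase, against 5367 of 18069 genes. In the interaction 33 were called with them (median -0.343), against 1828 of 20164 genes. The medians with cultures 3 and 4 alone were -0.146 in A1 against A0 at stationary phase and 0.025 in A0 against CHO-S at exponential phase. There RPL13A reversed at stationary phase, from -0.01 to 0.18 (adjusted p = 0.017 by edgeR). The first A0 libraries gave 34 calls in the interaction, against 2359 of 20500 genes. On the TMM scale the summed share was 3.899% in CHO-S exponential, 4.800% in A0 stationary and 4.198% in A1 stationary cultures.

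Leaving out 1 culture at a time gave 9 to 38 calls in A1 against A0 at exponential phase, 14 to 28 in A1 between phases (median 0.007 to 0.068), 0 to 60 in CHO-S between phases, 13 to 63 in A1 against CHO-S at stationary phase and 5 to 29 in the interaction. Over all genes, the fits with 9 and 38 calls called 3156 of 19853 and 6017 of 19663. Those with 14 and 28 called 5464 of 18159 and 5503 of 18277, and that with 60 called 8269 of 17319. Those with 13 and 63 called 4054 of 17618 and 10451 of 18204, and those with 5 and 29 called 1221 of 20912 and 2009 of 20762. Of 71 called values of named members, 33 kept direction and call in every alternative run. The addition of unnamed RefSeq copies of ribosomal protein genes was not run, because the table used here gives them no name. Depth limits CHO-S stationary culture 1 most.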
